A study of Homo sapiens with 2 samples.

Results

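The NF-kB transcription factor subunits and a set of their inhibitors and feedback target genes were examined in RKO cells, a human colorectal carcinoma line. The members were the 10 genes NFKB1, NFKB2, RELA, RELB, REL, NFKBIA, NFKBIE, TNFAIP3, TRAF1 and BIRC3, taken by symbol from a table of 54261 features. Each symbol matched 1 row, and all 10 had a CPM (reads relative to the scaled library size) of 1 or more in both libraries. The control group was 1 RNA-seq library of RKO cells given the siRNA siNC (genotype labelled WT). The other group was 1 library of RKO cells given siHNRNPM, an siRNA against HNRNPM (labelled as a knockdown). Both groups were cultured in the same medium, and the labels name no stimulus of the pathway. The comparison addresses how NF-kB genes differ when HNRNPM, which encodes a splicing-related RNA-binding protein, is knocked down. With 1 library per group no difference has a replicate check, and no p-value is given.

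NF-kB factors are dimers of Rel-family proteins that are held inactive by IkB inhibitor proteins. In the canonical route, the IKK kinase complex marks IkB for degradation and frees dimers of RELA or REL with the product of NFKB1. In the non-canonical route, the product of NFKB2 is processed and pairs with RELB. Several inhibitors are themselves targets of NF-kB, which makes the pathway a negative feedback loop. In epithelial and colorectal cancer cells the pathway is known for control of inflammatory and cell survival genes.

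Read totals were 13056118 for siHNRNPM and 19931360 for the control. HNRNPM was at 79.6 CPM (1042 reads) in the siHNRNPM library and at 144 CPM (2870 reads) in the control library, or 55.2% of the control level (counting interval 51.3% to 59.2%). In such bulk libraries fewer cells expressing a gene and less RNA per cell cannot be told apart. The targeted gene was thus lower in the library labelled as the knockdown. Of 13 colon and epithelial markers, KRT8, KRT18, CDX2 and EPCAM passed 1 CPM, whereas CDX1, KRT20, MUC2 and LGR5 had 0 reads in both libraries and CDH1 had 1 and 10. The 16 hepatocyte markers differed in sum, with 459 reads in the siHNRNPM library against 15 in the control library (35.1 and 0.754 CPM). SERPINA1, AFP and ALB made up most of this, with 177, 174 and 77 reads against 6, 1 and 0, while APOA1, APOC3, TTR, FGG, RBP4 and HP were at 0 in both. Lymphocyte markers summed to 5 and 8 reads and endothelial markers to 11 and 27. Fibroblast markers summed to 63 and 42 reads (4.81 and 2.11 CPM), with COL1A1 and COL1A2 past 2-fold from 21 and 14 reads against 13 and 8. Myeloid markers summed to 886 and 766 CPM, nearly all from CD68, a lysosomal protein gene (log2 ratio 0.21, 0.18 to 0.25). The part of these marker differences in the results below was not tested.

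Promoter sequences of the members were searched for the motif that the family binds. RefSeq promoter windows (GRCh38.p14, 250 bases before to 50 after each annotated start) were found for 8 of the 10 members. RELB and NFKBIE were not matched. The kB consensus, a motif of 10 letters to which NF-kB dimers bind, was searched on both strands. It was found for 6 of the 8 members, namely NFKB1, NFKB2, REL, NFKBIA, TNFAIP3 and BIRC3. Over all genes of the promoter table, 13.3% held the consensus in at least 1 window. Several of the members are known as NF-kB targets, so the share of members is a description of the set. A match is not a measured binding site.

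The stretch from 200 bases before the start to the start is printed 5′ to 3′ on the gene's strand for the members with a match, with bases matching the kB consensus on either strand in capitals. They are shown because they are the members whose own promoter windows carry the motif that the family binds.
NFKBIA: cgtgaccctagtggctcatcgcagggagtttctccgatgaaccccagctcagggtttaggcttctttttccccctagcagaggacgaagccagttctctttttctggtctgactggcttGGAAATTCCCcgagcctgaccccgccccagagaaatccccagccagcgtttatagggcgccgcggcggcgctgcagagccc
TNFAIP3: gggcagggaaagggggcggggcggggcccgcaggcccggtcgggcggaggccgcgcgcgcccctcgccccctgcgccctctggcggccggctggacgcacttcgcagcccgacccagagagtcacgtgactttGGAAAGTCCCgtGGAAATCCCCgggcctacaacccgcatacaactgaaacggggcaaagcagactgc
BIRC3: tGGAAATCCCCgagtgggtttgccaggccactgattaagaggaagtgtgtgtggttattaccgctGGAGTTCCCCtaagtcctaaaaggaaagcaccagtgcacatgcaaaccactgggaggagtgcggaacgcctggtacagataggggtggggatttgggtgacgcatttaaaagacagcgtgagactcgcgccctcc
NFKB1: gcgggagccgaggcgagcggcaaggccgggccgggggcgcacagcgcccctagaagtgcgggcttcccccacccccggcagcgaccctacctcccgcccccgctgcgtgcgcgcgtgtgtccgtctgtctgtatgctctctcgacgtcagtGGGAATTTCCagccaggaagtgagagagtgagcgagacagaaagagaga
NFKB2: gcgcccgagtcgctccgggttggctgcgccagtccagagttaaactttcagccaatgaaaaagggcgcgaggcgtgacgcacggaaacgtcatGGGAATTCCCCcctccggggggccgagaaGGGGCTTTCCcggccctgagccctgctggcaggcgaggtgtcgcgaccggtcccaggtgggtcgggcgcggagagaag
REL: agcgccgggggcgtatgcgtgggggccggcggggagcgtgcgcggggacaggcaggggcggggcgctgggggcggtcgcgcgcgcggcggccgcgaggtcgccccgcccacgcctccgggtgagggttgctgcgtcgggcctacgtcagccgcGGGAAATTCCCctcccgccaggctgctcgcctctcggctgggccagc
They lie at chr14:35404750-35404949 (minus strand), chr6:137867059-137867258 (plus strand), chr11:102317284-102317483 (plus strand), chr4:102501159-102501358 (plus strand), chr10:102394378-102394577 (plus strand) and chr2:60881374-60881573 (plus strand). The match of NFKBIA began 81 bases before the start, and that of NFKB1 began 49 bases before it. TNFAIP3 had 2 matches close together, beginning 67 and 55 bases before the start. In REL both strands matched over the same bases, beginning at 47 and 46. BIRC3 had matches at 199 and 135. NFKB2 had overlapping matches on both strands beginning at 107 and 106 and another at 78, and before another annotated start of the gene it had matches at 176 (both strands) and 21. The windows of RELA and of the 3 annotated starts of TRAF1 held no match of these letters.

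NF-kB genes as a set were at the same summed level in both libraries, and the single large difference was in TRAF1. The 10 members summed to 670 CPM (8774 reads) in the siHNRNPM library and 668 CPM (13279 reads) in the control library, a log2 ratio of 0.01 (-0.03 to 0.04). Intervals of ratios are 95% exact Clopper-Pearson intervals of the split of reads. They cover counting error only, since PCR copies are not independent molecules and variation between cultures was not measured. By these intervals 4 of the 10 members were higher in the siHNRNPM library (TRAF1, RELB, NFKB2 and NFKBIA), beside 22.0% of the 12925 measured genes. Another 2 were lower (BIRC3 and RELA), beside 26.1% of the measured genes. The intervals of NFKB1, REL, NFKBIE and TNFAIP3 spanned a ratio of 1. None reached 2-fold, which 2.45% of measured genes reached upward and 1.49% downward. Only TRAF1 was at least 1.5-fold higher, as were 646 of the 12925 measured genes, and none was 1.5-fold lower, as were 589 (4.56%). The median log2 ratio of the members was -0.04, against -0.01 for all measured genes (quartiles -0.21 and 0.18).

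**Figure D1:**
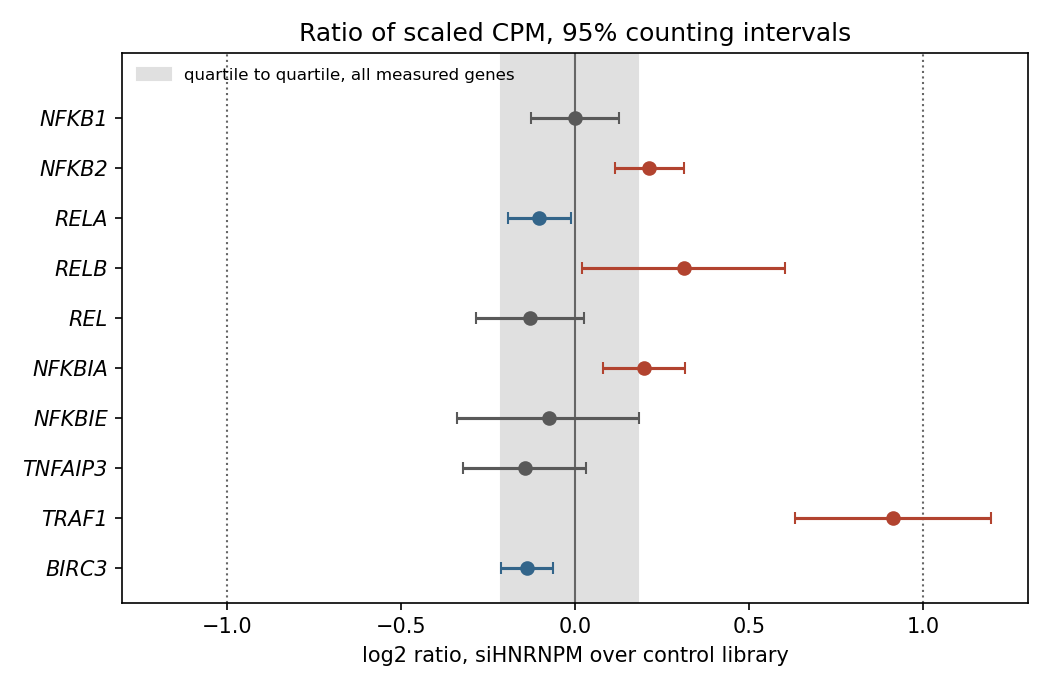
Log2 ratio of the siHNRNPM over the control library for each NF-kB gene (1 library per group), with 95% counting intervals. Red points lie above and blue points below a ratio of 1 by their interval, grey points span it, the shaded band runs between the quartiles of all measured genes and dotted lines mark 2-fold. TRAF1 stands at 0.91, and the other 9 genes lie between -0.14 and 0.31.

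Since genes with more reads have narrower intervals, the shares were also taken over genes read at least as deeply as RELB, the least-read member with 400 reads over both libraries. Of these 9110 genes, 23.7% were higher and 31.4% lower by their interval, and 0.274% and 0.220% were at least 2-fold higher or lower. The intervals of 9 of the 10 members lay inside a 2-fold change in either direction, the exception being TRAF1. For 8 of the 10 they lay inside a 1.5-fold change, the exceptions being TRAF1 and RELB. A 2-fold change in the other 9 members was therefore outside the counting error of these 2 libraries.

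**Figure D2:**
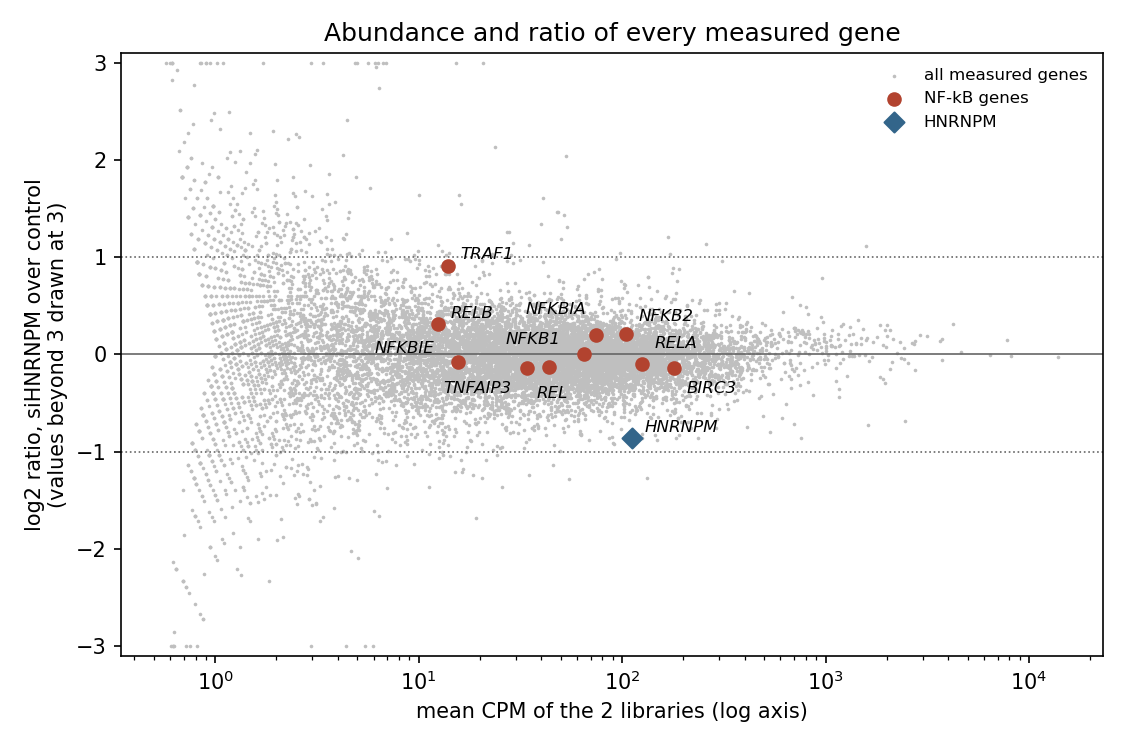
Log2 ratio of the siHNRNPM over the control library against mean CPM of the 2 libraries for all measured genes (grey), the NF-kB genes (red) and HNRNPM (blue diamond), with ratios beyond 3 drawn at 3 and dotted lines at 2-fold. TRAF1 lies above the other NF-kB genes at 0.91, while HNRNPM lies below them at -0.86.

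Among the subunit genes, those of the non-canonical pair were slightly higher and the RELA gene slightly lower in the siHNRNPM library. NFKB2, which encodes p100 and its processed form p52 (chromosome 10, 102394110 to 102402529, plus strand), had 112 CPM (1462 reads) in the siHNRNPM library against 96.3 CPM (1915 reads). Its log2 ratio was 0.21 (0.11 to 0.31). RELB, the partner of p52 (chromosome 19, 45001430 to 45038198, plus strand), had 13.8 CPM (180 reads) against 11.1 CPM (220 reads), a log2 ratio of 0.31 (0.02 to 0.60). With so few reads its interval only just left out a ratio of 1, and it spanned 1 when the control library was thinned to the depth of the other (-0.06 to 0.58). The thinning was a single random draw of reads.

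RELA, which encodes the transactivating subunit p65 (chromosome 11, 65653596 to 65663094, minus strand), had 121 CPM (1588 reads) against 130 CPM (2589 reads). Its log2 ratio was -0.10 (-0.19 to -0.01), and the interval spanned 1 with upper-quartile scaling (-0.16 to 0.02) and with the thinned control library (-0.19 to 0.01). REL, which encodes the c-Rel subunit (chromosome 2, 60881521 to 60931610, plus strand), had 41.6 CPM (544 reads) against 45.5 CPM (904 reads), a log2 ratio of -0.13 (-0.29 to 0.03). GENCODE 29 lists a non-coding transcript on the same strand that shares 5702 exon bases with REL, and which of the overlapping transcripts the reads came from was not resolved here. Genes on the opposite strand share 95 exon bases with TNFAIP3 and 9 with RELA, and the use of strand in counting is not stated. NFKB1, which encodes p105 and its processed form p50 (chromosome 4, 102501329 to 102617302, plus strand), was at 65.1 CPM in both libraries, from 852 and 1295 reads. Its log2 ratio was 0.00 (-0.13 to 0.13), the closest to 0 of the members. The 5 subunit genes together had 353 and 348 CPM, a log2 ratio of 0.02 (-0.03 to 0.08).

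The inhibitor genes were higher or not separated from the control level. NFKBIA, which encodes IkB-alpha, the inhibitor that NF-kB resynthesises to end its own response (chromosome 14, 35401511 to 35404749, minus strand), had 79.4 CPM (1039 reads) against 69.2 CPM (1376 reads). Its log2 ratio was 0.20 (0.08 to 0.32). NFKBIE, which encodes IkB-epsilon (chromosome 6, 44258166 to 44265788, minus strand), had 15.1 CPM (198 reads) against 15.9 CPM (317 reads), a log2 ratio of -0.08 (-0.34 to 0.19). The ratio of NFKBIA to NFKBIE reads was 5.25 in the siHNRNPM library and 4.34 in the control library, and the interval of this log2 difference of 0.27 spanned 0 (-0.01 to 0.56).

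Of the feedback and survival targets, TRAF1 was higher and BIRC3 lower in the siHNRNPM library. TRAF1, which encodes a signalling adaptor of tumour necrosis factor receptors (chromosome 9, 120902393 to 120929173, minus strand), had 18.2 CPM (238 reads) against 9.66 CPM (192 reads). It was 1.88-fold higher (1.55 to 2.29), a log2 ratio of 0.91 (0.63 to 1.20). It had more reads in the siHNRNPM library although that library was the smaller, and its ratio ranked 400th from the highest among the 12925 measured genes. That rank includes genes with few reads. At least 2-fold higher were 317 of all measured genes, but only 25 of the 9110 with 400 reads or more. TRAF1 did not reach 2-fold and is in neither count, and its rank among the 9110 genes was not computed. BIRC3, which encodes the ubiquitin ligase cIAP2 that acts with TRAF proteins at the same receptors (chromosome 11, 102317450 to 102339403, plus strand), had 172 CPM (2249 reads) against 189 CPM (3759 reads). Its log2 ratio was -0.14 (-0.21 to -0.06), or 90.9% of the control level (86.2% to 95.8%). TNFAIP3, which encodes A20, a ubiquitin-editing enzyme that shuts off the response (chromosome 6, 137867188 to 137883312, plus strand), had 32.4 CPM (424 reads) against 35.8 CPM (712 reads). Its log2 ratio of -0.14 (-0.32 to 0.03) was the lowest of the members, and its interval spanned 1.

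The genes on either side of TRAF1, chosen after its value was seen, are on the same strand. PHF19, a Polycomb-associated gene 7496 bases away, had 962 and 1341 reads and a log2 ratio of 0.12 (0.00 to 0.24). C5, the complement component gene 23161 bases away on the other side, had 0.52 (0.21 to 0.83), from 172 and 182 reads. C5 is known for expression in hepatocytes, whose markers had more reads in the siHNRNPM library as given above, and the part of this in the values of C5 and TRAF1 was not tested.

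Ratios of members to each other within a library do not depend on how the libraries are scaled. The intervals here are exact conditional ones for the ratio of 2 genes between libraries, and pairs that share a gene are not independent. The pairs below were chosen with the values of the members known, and no share over pairs of other genes was computed. The NFKB2 to RELA read ratio was 0.921 in the siHNRNPM library and 0.740 in the control library, 1.24-fold higher (log2 0.32, 0.18 to 0.45). RELB to RELA was 0.113 against 0.0850, a log2 change of 0.42 (0.11 to 0.72). NFKB2 thus stood higher relative to the canonical subunit genes RELA, REL (log2 0.34, 0.16 to 0.53) and NFKB1 (0.21, 0.05 to 0.38).

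The feedback genes also differed among themselves. NFKBIA to NFKB2 was nearly the same in both libraries, 0.711 against 0.719 (log2 -0.02, -0.17 to 0.14), and so was TNFAIP3 to BIRC3, at 0.189 in both (-0.01, -0.20 to 0.19). These intervals leave room for small differences in either direction. The TNFAIP3 to NFKBIA ratio was lower in the siHNRNPM library, 0.408 against 0.517 (-0.34, -0.56 to -0.13), and so was BIRC3 to NFKBIA, 2.16 against 2.73 (-0.34, -0.48 to -0.20). TRAF1 to BIRC3 was 0.106 against 0.0511, or 2.07-fold higher (log2 1.05, 0.76 to 1.34). By their intervals against the control level, the 6 members with a kB match in their promoter window fell on both sides. NFKB2 and NFKBIA were higher, BIRC3 was lower, and NFKB1, REL and TNFAIP3 spanned a ratio of 1. Of all measured genes 22.0% were higher and 26.1% lower, and the shares over other genes with a match were not computed. TRAF1, the member with the highest ratio, had no match in its windows.

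To compare levels between genes, reads were divided by the exon length of GENCODE 29 and expressed as RPKM, with exact 95% Poisson intervals for counting error. NFKBIA had the highest level per length in both libraries, at 33.5 RPKM (31.5 to 35.6) in the siHNRNPM library and 29.2 RPKM (27.6 to 30.7) in the control library. In the control library BIRC3 (25.1 RPKM), RELA (23.8 RPKM) and NFKB2 (21.5 RPKM) followed, with BIRC3 and RELA not separated by their intervals. In the siHNRNPM library NFKB2 came second at 24.9 RPKM, ahead of BIRC3 (22.9 RPKM) and RELA (22.2 RPKM), and neither NFKB2 and BIRC3 nor BIRC3 and RELA were separated. NFKB1 was at 10.4 RPKM in both libraries. TNFAIP3 (6.41 and 7.09 RPKM in the siHNRNPM and control library) and NFKBIE (5.86 and 6.18 RPKM) came next and were not separated in either. RELB (4.53 and 3.65 RPKM) and REL (3.16 and 3.45 RPKM) were separated in the siHNRNPM library but not in the control library. TRAF1 had the lowest level per length, 2.82 RPKM (2.47 to 3.20) against 1.497 RPKM (1.29 to 1.72), and was not separated from REL in the siHNRNPM library.

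**Figure D3:**
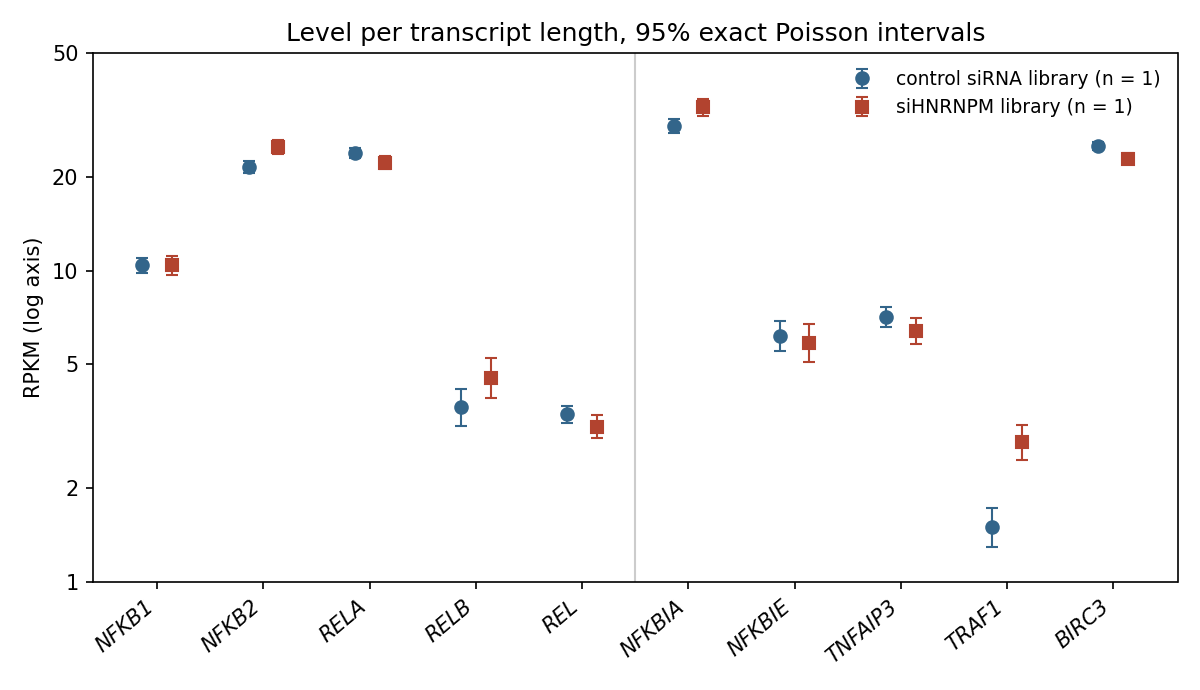
Level of each NF-kB gene as RPKM on a log axis in the control siRNA library (blue circles) and the siHNRNPM library (red squares), 1 library each, with 95% exact Poisson intervals and subunit genes left of the vertical line. NFKBIA is highest in both libraries at 29.2 and 33.5 RPKM, and TRAF1 is lowest at 1.497 and 2.82 RPKM with intervals that do not meet.

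Of the summed RPKM of the 5 subunit genes, RELA made up 37.9% and NFKB2 34.2% in the control library. In the siHNRNPM library NFKB2 made up 38.2% and RELA 34.1%. The order among RELA, NFKB2 and BIRC3, and several separations given above, depended on the length used. By the longest protein-coding transcript NFKBIA and RELA were not separated in the control library, whereas TNFAIP3 and NFKBIE were. In the siHNRNPM library REL and TRAF1 were then separated, and RELB lay ahead of NFKBIE without being separated from it. With the longest protein-coding transcript the levels in the siHNRNPM library were 38.1 RPKM for RELA, 33.1 RPKM for BIRC3 and 32.7 RPKM for NFKB2, and in the control library 40.9, 36.4 and 28.2 RPKM. RELA then made up the larger share of the subunit sum in both libraries (for RELA and NFKB2, 43.6% and 30.0% in the control library, 39.5% and 33.9% in the siHNRNPM library). NFKB1 made up 16.6% and 16.0% of the sum in the control and siHNRNPM library, RELB 5.80% and 6.95%, and REL 5.50% and 4.84%.

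The rest of the pathway was described by 7 lists of 102 genes, of which 83 were measured. By their intervals 21 (25.3%) were above and 22 (26.5%) below the control level, close to the 22.0% and 26.1% of all measured genes, and the median log2 ratio was -0.02. IL1R1, the interleukin-1 receptor gene, was the single gene past 2-fold, lower at -1.43 (-2.47 to -0.49), with 12 and 49 reads. Of all measured genes 1.49% were at least 2-fold lower and 2.45% at least 2-fold higher.

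The other IkB proteins and regulators had 0 higher and 2 lower of 6 measured, with a median of -0.10. The gene not measured was NFKBIB, which encodes IkB-beta, with 1 read in the siHNRNPM library and 6 in the control library. NFKBIB is also annotated outside the primary assembly, and the part of this in its counts was not tested. NFKBIZ, which encodes a nuclear IkB protein, had 1908 and 3180 reads and a log2 ratio of -0.13 (-0.22 to -0.05), and NKIRAS1, an IkB-interacting Ras-like gene, had -0.41 (-0.61 to -0.21). The NFKBIA to NFKBIZ ratio was thus higher in the siHNRNPM library, by a log2 value of 0.33 (0.19 to 0.48). Among the IKK complex and its upstream kinases, 4 of 15 were higher and 3 lower, and the median was 0.01. The kinase genes MAP3K3 and MAP3K7 (TAK1) were lower, at -0.53 (-0.69 to -0.38) and -0.34 (-0.44 to -0.24). MAP3K8 (0.41, 0.12 to 0.70) and the adaptor gene TANK (0.28, 0.11 to 0.44) were higher.

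TRAF, IAP and ubiquitin ligase genes had 3 higher and 6 lower of 16, with a median of -0.03. Relatives and partners of TRAF1 and BIRC3 make up only a part of this list. RBCK1, a subunit gene of the linear ubiquitin ligase LUBAC, had 1956 and 1807 reads and a ratio on the log2 scale of 0.72 (0.62 to 0.81). TRAF3, which encodes a brake on the non-canonical route, had 0.41 (0.28 to 0.55), while UBE2V1, a ubiquitin-conjugating cofactor gene, had -0.41 (-0.70 to -0.13). BIRC2, which encodes cIAP1 and lies 7807 bases from BIRC3 on the same strand, was lower at -0.45 (-0.54 to -0.36), so the BIRC3 to BIRC2 read ratio was 1.39 in the siHNRNPM library against 1.12 (log2 change 0.31, 0.20 to 0.43). TRAF2 was lower, at -0.19 (-0.34 to -0.05). The log2 ratio of TRAF1 was above that of TRAF2 by 1.11 (0.79 to 1.43) and above that of TRAF3 by 0.50 (0.19 to 0.81).

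Other negative regulators had 3 higher and 1 lower of 11 measured, with a median of -0.02. The deubiquitinase gene CYLD had 0.26 (0.17 to 0.35), the A20-binding protein genes TAX1BP1 and TNIP1 had 0.27 (0.18 to 0.35) and 0.12 (0.04 to 0.20), and RNF11 had -0.24 (-0.34 to -0.14). Receptors and adaptors had 5 higher and 5 lower of 14 measured, with a median of -0.01. The death receptor gene TNFRSF10A had 0.50 (0.35 to 0.64) and IRAK2 had 0.33 (0.07 to 0.58). MYD88 and IRAK1, which act below interleukin-1 and Toll-like receptors, had -0.53 (-0.78 to -0.28) and -0.30 (-0.35 to -0.25). The genes of this route were not all lower, since IRAK2 was higher. IRAK4 had 0.14 (-0.02 to 0.30), an interval that spanned a ratio of 1.

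Target genes outside the members were mixed in direction. Of 17 cytokine and chemokine genes, 7 were measured and 7, among them IL6, TNF and IL1B, had 0 reads in both libraries. Counts of 0 do not exclude a low level of these genes. CXCL8, which encodes interleukin-8, had 255 and 326 reads and a log2 ratio of 0.25 (0.01 to 0.49), and CXCL2 had -0.79 (-1.53 to -0.09) from 24 and 63 reads. Of the genes at 0, TNF, LTB and CCL5 are also annotated outside the primary assembly, as are the target gene IER3 and the colon markers KRT20 and MUC2, and the part of this in their counts was not tested. Other targets had 5 higher and 4 lower of 14 measured, and their median was -0.05. SOD2, which encodes the mitochondrial superoxide dismutase, had 0.84 (0.76 to 0.92), the anti-apoptotic gene BCL2L1 0.53 (0.47 to 0.59), and the syndecan gene SDC4 0.50 (0.43 to 0.57). PLAUR, the urokinase receptor gene, had -0.56 (-0.64 to -0.48).

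**Figure D4:**
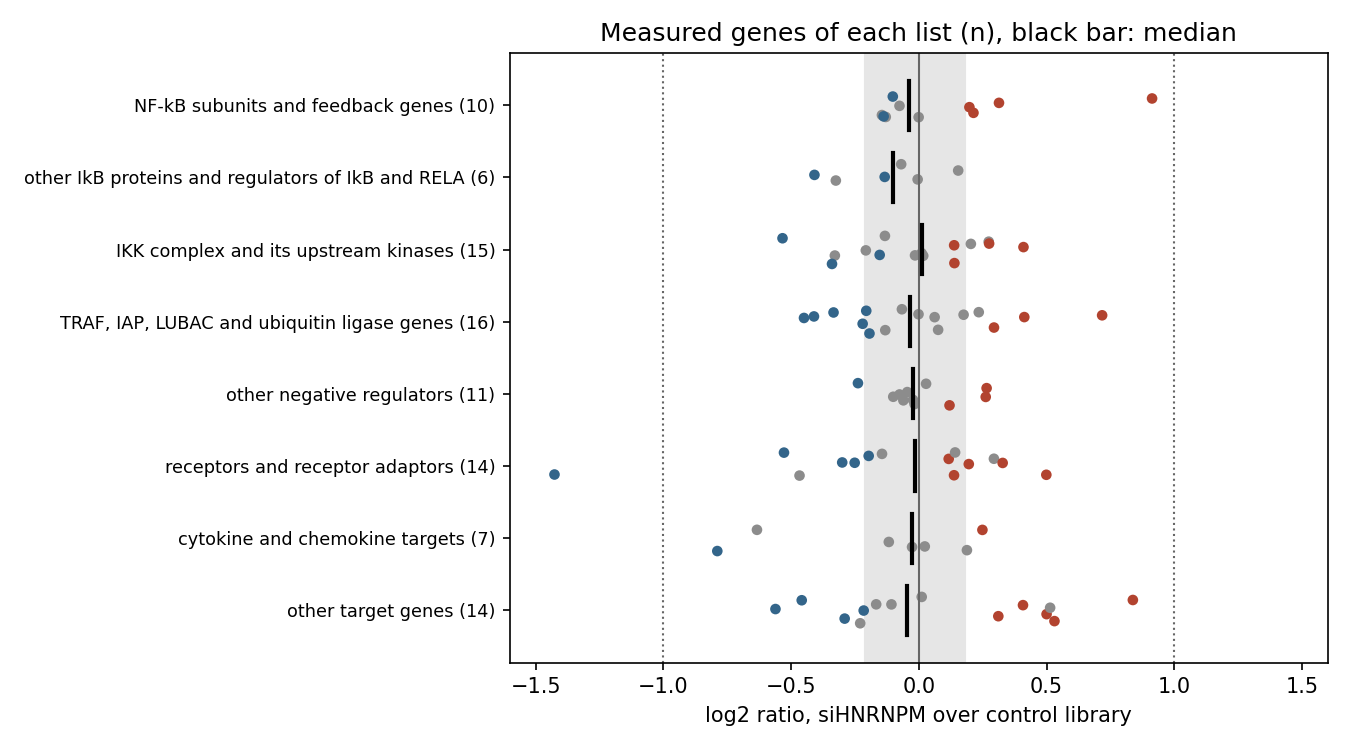
Log2 ratio of the siHNRNPM over the control library for each measured gene of the NF-kB list and of 7 pathway lists (number measured in brackets), red above, blue below and grey spanning a ratio of 1 by the 95% counting interval, with the list median as a black bar and the quartiles of all measured genes shaded. List medians lie between -0.10 and 0.01, and single genes such as TRAF1, SOD2 and RBCK1 lie to the right.

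The 3′ UTRs of the members were searched for GTGAGAA, a sequence whose genes had lower ratios in an earlier search of these same counts. Its presence is therefore no independent evidence on direction. Of the 10 members, 3 held 1 copy in their longest annotated 3′ UTR, beside 14.7% of 10795 measured protein-coding genes. The sites are printed with 11 bases on each side, the motif in capitals.
BIRC3: taaagaattctGTGAGAAaaaatttaata
NFKBIE: gactctcctgaGTGAGAAgagactgaaat
REL: tacacagcagaGTGAGAAaaatcattatg
The sites begin at base 594 of the 2301-base 3′ UTR of BIRC3, base 357 of 1053 in NFKBIE and base 7780 of 9075 in REL, against a median 3′ UTR length of 1412 bases over the genes searched. The log2 ratios of these 3 members, given above, were -0.14, -0.08 and -0.13, and only that of BIRC3 had an interval below a ratio of 1. Over all searched genes the median log2 ratio was -0.14 with the sequence and -0.01 without it. The 2 members that lay highest, TRAF1 and RELB, held no copy, nor did TNFAIP3, whose ratio was the lowest. In the pathway lists 13 of 83 measured genes held a copy. By their intervals 5 of these were lower and 2 higher, beside 26.1% and 22.0% of all measured genes. BIRC2, IRAK1, IL1R1 and PLAUR were among the lower and SOD2 among the higher. These shares were not computed over all genes with the sequence, so the counts are no result on direction.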

How the data were processed

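Whole-number read counts per gene symbol were deposited by the authors for 2 libraries, 1 per group, with no normalization, and each column was tied to its library by title and each library to its group by its treatment label. HISAT2 2.0.4 and GRCh38 are listed without a role, per the submitters' processing notes. The read counter, annotation, use of strand, handling of multi-mapped reads, siRNA sequences and harvest time are not given in the sources used here. Counts were scaled by TMM (edgeR 4.0.16, R 4.3.3; factors 1.00 and 0.998) and expressed as CPM. Genes with 1 CPM or more in at least 1 library were measured. A count of 0 was set to 0.5 in ratios. edgeR's tests need replicates and were not run. A gene was called 2-fold when its ratio reached 2-fold and its 95% interval excluded 1. The ratio and interval code was checked on simulated Poisson counts. These hold counting error only, so the check does not cover PCR copies or variation between cultures. Lengths, positions and 3′ UTRs came from GENCODE 29 and promoters from RefSeq. From each pathway list, genes past 2-fold and the 4 others with the largest ratio whose interval excluded 1 were named. The members, lists and alternatives were chosen with earlier results of these data known. Alternatives were total-count, DESeq2 1.42.0 and upper-quartile scaling, other CPM filters, a thinned control library, a prior count and other fold rules. Another gene length was added after seeing the data. The control library was thinned by a single random draw of reads, and other draws were not made.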

Additional observations from a re-analysis of the deposited data

How the results depend on the processing

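All 50 member ratios recomputed under the other scalings, the thinned control library and an edgeR prior count of 2 kept their direction where their interval had excluded 1, and lay inside the original interval. The number of members below a ratio of 1 went from 2 to 1 with upper-quartile scaling and to 1 with the thinned control library, RELA being the member that spanned 1. RELB also spanned 1 with the thinned library, which left 3 members above. Requiring 1.5-fold in place of 2-fold raised the higher members from 0 to 1 (TRAF1). The median of the receptor list was -0.01, -0.22 without a CPM filter, where sparsely read genes entered, and 0.12 at a CPM of 5 or more. RPKM of 7 members in each library moved past their counting interval with the longest protein-coding transcript as length. No paired analysis was possible because each group had 1 library, and for the same reason no library could be left out. Depth limits RELB, NFKBIE and TRAF1 most, with 400 to 515 reads each over both libraries.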
